A study of Mus musculus with 2 samples.

Results

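The bone morphogenetic protein (BMP) and transforming growth factor beta (TGF-beta) genes are described here as a group of 70 among the 20207 genes of the deposited tables. They were taken by gene symbol alone, as the Bmp, Gdf, Inh and Tgfb ligands, the Nog, Chrd, Chrdl, Grem, Fst, Fstl and Bmper antagonists, the Bmpr, Acvr, Tgfbr and Bambi receptors, the Smad and Smurf genes, and the targets Id1 to Id4, Msx and Tgfbi, leaving out Gdf1 and Gdf3. The symbol pattern also took Bmp1, a protease that cuts procollagen and chordin, which was kept apart from the ligands. By role there were 26 ligands, 12 antagonists, 13 receptors, 10 Smad and Smurf genes, 8 targets and the protease.

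The study measured RNA of embryoid bodies, floating balls of differentiating mouse embryonic stem cells, on day 6. The cells carried hairpin RNAs against HoxBlinc, a long noncoding RNA of the HoxB locus, that doxycycline switches on. One library came from embryoid bodies without doxycycline and the other from embryoid bodies that received 2 ug/ml doxycycline from day 2, and in each the RNA of 2 separate hairpins had been mixed. Both groups thus carried the hairpins, and a doxycycline library without a HoxBlinc hairpin was not analysed here. The labels name the stem cell lines R1/E and CGR8 MHC-GFP without assigning a line to a library. The level of HoxBlinc was not analysed here, so the target does not check the labels.

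Depth was 37046449 gene counts without and 24924921 with doxycycline. With 1 library per group there is no replicate error, no test and no p-value. Intervals are exact 95% intervals that cover counting error only, and each comparison is of these 2 libraries rather than of the conditions. In such bulk RNA, fewer cells of a type and less RNA per cell cannot be told apart. Levels are given in RPKM, which is scaled to gene length and library depth and allows genes to be compared. Folds are ratios of CPM, the counts scaled to the total gene count of a library. The ratio of a gene without over with doxycycline is 1.12 times larger in RPKM, because the authors' RPKM used other denominators. For 14 of the 43 measured genes described below, the direction differed between RPKM, CPM, TMM, median-of-ratios and RMS scaling. These were Bmp7, Inha, Bmp1, Bmpr1a, Tgfbr3, Acvr2a, Bmpr2, Tgfbr2, Smurf2, Smad1, Smad2, Smad4, Smad5 and Id4, so for them the CPM ratio is given, without over with doxycycline or the reverse, and no direction is drawn. A gene was measured when its RPKM reached 1 in the higher library and was called when (RPKM + 0.5) differed at least 2-fold, a scale that understates the differences of low genes.

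BMP and TGF-beta ligands bind pairs of type I and type II receptor kinases. BMP receptors phosphorylate Smad1, Smad5 and Smad9, activin and TGF-beta receptors phosphorylate Smad2 and Smad3, and both kinds of receptor Smad enter the nucleus with Smad4. Id and Msx genes are long known targets of BMP, and Smad6, Smad7 and Bambi are targets that also inhibit the pathway. In the early embryo BMP4 is needed to form mesoderm and its extraembryonic, heart and blood derivatives, while chordin and noggin hold BMP ligands away from their receptors.

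In RPKM as deposited, a larger share of the measured targets than of the receptors, Smads, ligands or antagonists was called lower with doxycycline. Of the 70 genes 43 were measured, and 10 of these (23.3%) were called lower with doxycycline, against 2.64% of all 11063 measured genes. One gene, Chrd, was called higher (2.33%), against 0.262% of all measured genes. Called genes made up 5 of 7 measured targets, 2 of 11 receptors, 1 of 9 Smad and Smurf genes, 1 of 10 ligands and 2 of 5 antagonists, of which 1 was lower and 1 higher. The count of targets called lower was 2 of 7 with TMM and with median-of-ratios factors, and 3 of 7 after centring on the median of all measured genes. With either of these factors 2 of 10 ligands, 2 of 11 receptors, 1 of 9 Smad and Smurf genes and 1 of 5 antagonists were called lower. The roles thus differed less in their shares on those scalings. In RPKM as deposited, the median log2 ratio of the measured members was -0.33, and that of all measured genes -0.18. It was -1.15 for targets, -0.49 for ligands, -0.49 for antagonists, -0.21 for Smads and Smurfs and -0.14 for receptors. Set against that general median, 28 members lay below and 15 above. Centred on that median, 7 members were called lower and 1 higher, against 1.74% and 0.452% of all measured genes. The 3 that lost their call were Id2, Tgfbi and Grem1.

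The share called did not follow the level of the members. Among those with a higher RPKM of 1 to 5, 4 of 17 were called lower (23.5%), and among those of 5 or more 6 of 26 (23.1%). Over all genes the corresponding shares were 5.20% of 3420 and 1.49% of 7643.

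**Figure D1:**
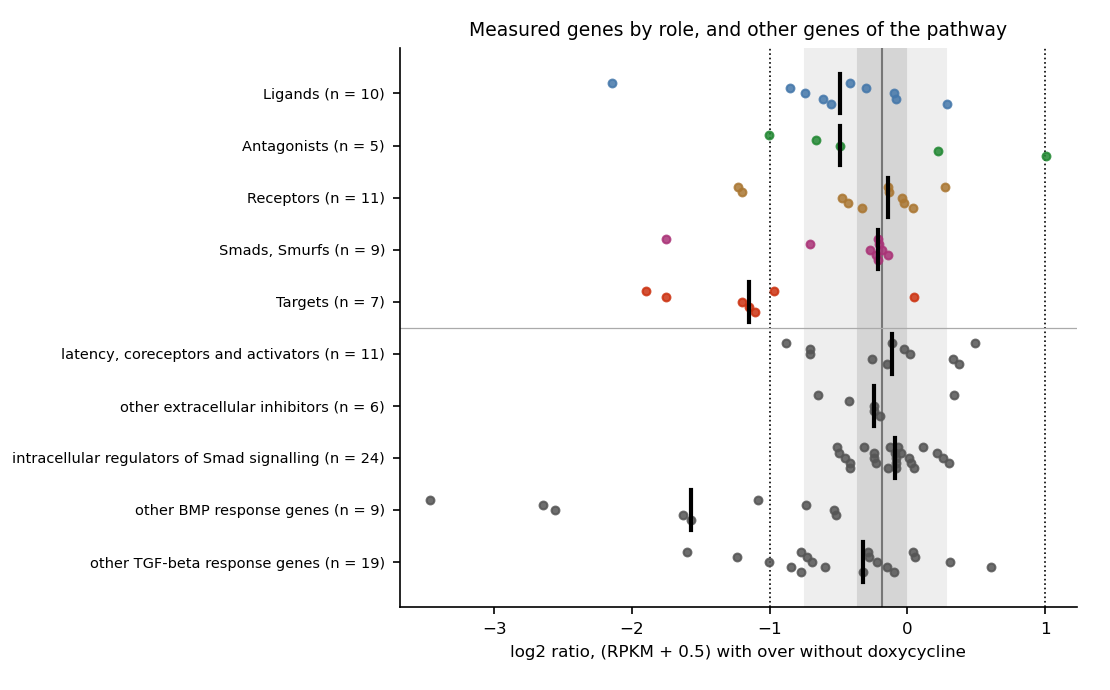
log2 ratio of (RPKM + 0.5) with over without doxycycline for each measured member by role (colours) and for other genes of the pathway (grey points). Black bars are medians, dotted lines mark 2-fold, the grey line is the median of all measured genes (-0.18), and the dark and light bands hold the 25th to 75th and the 5th to 95th percentile of all measured genes. Targets (median -1.15) and other BMP response genes (median -1.57) lie to the left, while receptors, Smads and intracellular regulators centre near the grey line.

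To show the start sites of called target and Smad genes, the RefSeq promoter windows of the GRCm38.p6 build were read, each from 250 bases before to 50 bases after the transcription start. These are not the mm9 coordinates of the gene tables. A window was found for 50 of the 70 members. Capitals mark 3 motifs, searched on both strands: GGCGCC, which is a GC-rich element bound by Smad1 and Smad5, then GTCTG, which is a Smad binding element, and the palindromic Smad box, whose letters are GTCTAGAC. The last was added after the windows had been read. Smad6 is shown for that box, Id2 and Tgfbi for the GC-rich element, and Msx1, which had the largest fold of the called genes, as a window with none of the 3. The window of Msx2, also called lower, held none of the 3 either and is not shown. No window was found for Id1.
Smad6 (chr9:64022010-64022309, minus strand): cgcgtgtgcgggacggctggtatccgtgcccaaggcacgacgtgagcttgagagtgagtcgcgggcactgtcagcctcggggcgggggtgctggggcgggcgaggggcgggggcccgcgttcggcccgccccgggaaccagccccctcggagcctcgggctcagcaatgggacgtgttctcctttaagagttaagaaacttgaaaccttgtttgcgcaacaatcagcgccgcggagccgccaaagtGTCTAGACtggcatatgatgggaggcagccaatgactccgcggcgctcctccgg
Id2 (chr12:25096043-25096342, minus strand): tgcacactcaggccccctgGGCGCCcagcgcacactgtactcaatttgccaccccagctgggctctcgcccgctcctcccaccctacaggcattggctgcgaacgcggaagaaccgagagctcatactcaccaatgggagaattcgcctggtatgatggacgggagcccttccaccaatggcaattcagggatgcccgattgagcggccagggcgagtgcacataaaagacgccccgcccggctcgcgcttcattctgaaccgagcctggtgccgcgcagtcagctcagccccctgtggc
Tgfbi (chr13:56609336-56609635, plus strand): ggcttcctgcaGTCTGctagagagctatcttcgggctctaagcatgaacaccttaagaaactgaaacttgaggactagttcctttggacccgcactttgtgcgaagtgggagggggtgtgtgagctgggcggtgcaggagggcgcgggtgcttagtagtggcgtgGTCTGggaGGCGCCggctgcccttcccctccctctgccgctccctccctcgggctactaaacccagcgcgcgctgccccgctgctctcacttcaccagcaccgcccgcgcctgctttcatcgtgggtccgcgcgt
Msx1 (chr5:37824536-37824835, minus strand): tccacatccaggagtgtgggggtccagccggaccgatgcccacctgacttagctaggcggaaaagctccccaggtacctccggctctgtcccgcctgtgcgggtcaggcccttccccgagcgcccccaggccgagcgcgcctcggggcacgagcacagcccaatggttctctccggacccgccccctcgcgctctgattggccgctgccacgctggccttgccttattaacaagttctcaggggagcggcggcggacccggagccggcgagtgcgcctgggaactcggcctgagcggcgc

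GGCGCC was present in 3 of 7 windows of members called lower (Id2, Tgfbi and Grem1), in 8 of 27 windows of measured members that were not called, and in 11.9% of all 32851 windows of the table. The window of Chrd, the member called higher, also held it. GTCTG was in 3 of 7, in 13 of 27 and in 49.6%, respectively. GTCTAGAC, added after the windows had been read, was in 1 window of a member, that of Smad6, and in 0.213% of all windows. In Smad6 it starts 4 bases before the transcription start. Because of the late choice, its count is not independent of these windows. A match is a description of the letters, and the absence of one refers to these windows only.

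Among the targets, the Id genes were the most abundant. They encode helix-loop-helix proteins that lack a DNA binding region and hold other such factors inactive. Id3 stood at 124.7 RPKM without and 63.6 with doxycycline (7282 and 2802 counts), 1.75-fold lower (1.67 to 1.83), and so remained just short of a call. Id1 was at 83.3 and 35.9 RPKM (4649 and 1512 counts), 2.07-fold lower (1.95 to 2.19). Id2 was at 28.9 and 12.7 RPKM (2255 and 749 counts), 2.03-fold lower (1.86 to 2.20). The intervals of Id1 and Id2 overlapped, and that of Id3 lay below both. With all counts halved, that of Id3 (1.64 to 1.86) overlapped that of Id2 (1.80 to 2.29) and stayed below that of Id1 (1.90 to 2.25). Id4 was at 1.93 and 2.01 RPKM (196 and 154 counts) with an interval that included 1 (ratio with over without 1.17, 0.939 to 1.45). The summed Id level went from 239 to 114 RPKM, of which Id3 made up 52.2% without and 55.7% with doxycycline. With edgeR's TMM scaling the folds of Id1 and Id2 were 1.98 and 1.94, just under the threshold.

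The Msx genes, homeobox repressors of limb, heart cushion and neural border, differed more. Msx1 (chromosome 5, 38211730 to 38215824, in mm9 coordinates here and below) had 245 counts without and 17 with doxycycline, 2.07 and 0.191 RPKM, and was 9.70-fold lower (5.93 to 16.9). Msx2 (chromosome 13, 53562250 to 53568149) was at 7.41 and 1.85 RPKM, with 982 and 185 counts, and was 3.57-fold lower (3.05 to 4.20). Within the pair the balance moved as well, since Msx1 stood at 21.8% of the summed Msx level without and 9.33% with doxycycline. Msx3 had 0 counts in both libraries. The antisense gene Msx1as overlaps Msx1 and had 33 and 0 counts, and since the strand of the reads is not given in the sources used here, reads of the pair cannot be told apart. Tgfbi, a secreted matrix protein named for its induction by TGF-beta, was at 7.66 and 3.28 RPKM (1257 and 406 counts), 2.08-fold lower (1.86 to 2.34). With TMM scaling this was 1.99-fold.

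**Figure D2:**
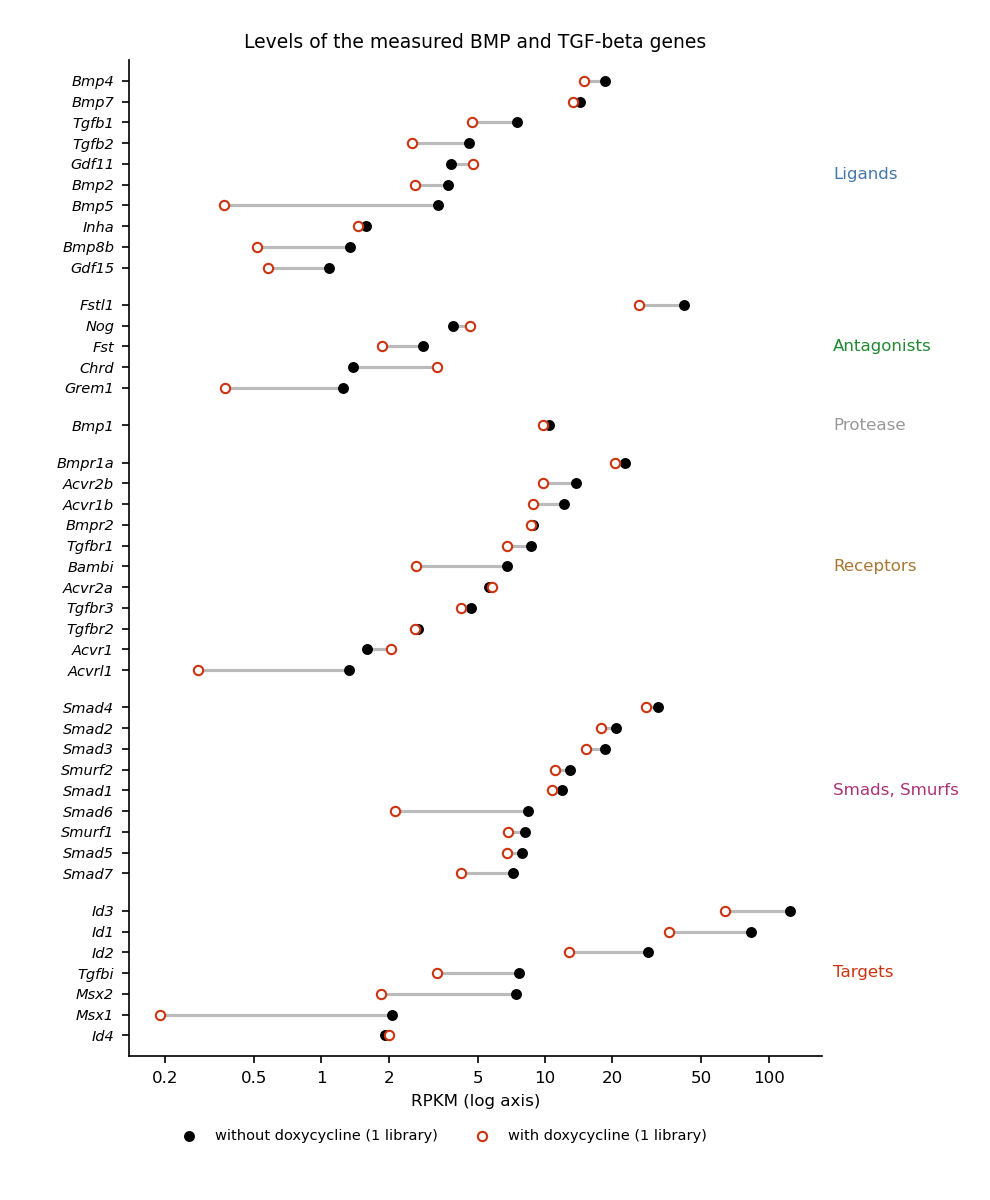
RPKM (log axis) of the 43 measured members without (black) and with doxycycline (open red), 1 library each, ordered within a role by level. Long bars mark Bmp5, Bmp8b, Grem1, Bambi, Acvrl1, Smad6, Msx2 and Msx1. For Chrd, Nog, Gdf11, Acvr1, Acvr2a and Id4 the open symbol lies to the right in RPKM.

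Feedback inhibitors inside the cell and at its surface were lower too. Smad6 (chromosome 9, 63800884 to 63869866), which blocks BMP receptor Smads, was at 8.37 RPKM without and 2.13 with doxycycline (1523 and 292 counts), 3.51-fold lower (3.09 to 3.99). Smad7, which blocks TGF-beta as well as BMP receptors, was at 7.19 and 4.20 RPKM (1957 and 863 counts), a smaller difference of 1.53-fold lower (1.41 to 1.65) that was not called. The inhibitory Smads together went from 15.6 to 6.33 RPKM, and the share of Smad6 in that sum from 53.8% to 33.6%. Bambi, a receptor lookalike without a kinase that dampens BMP and TGF-beta signals, was at 6.76 and 2.66 RPKM (2087 and 619 counts), 2.27-fold lower (2.07 to 2.49).

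The Smads that carry the signal differed little, and their intervals lay close to 1. Smad1, the main BMP receptor Smad here, was at 11.9 and 10.7 RPKM (2212 and 1509 counts), with a ratio without over with doxycycline of 0.986 (0.923 to 1.05). Smad5 was at 7.91 and 6.77 RPKM (3191 and 2059 counts), with a ratio without over with doxycycline of 1.04 (0.986 to 1.10). On the TGF-beta side Smad2 was at 20.7 and 17.8 RPKM (3190 and 2071 counts), a ratio without over with of 1.04 (0.980 to 1.10). Smad3 was at 18.5 and 15.2 RPKM (5757 and 3568 counts), 1.09-fold lower (1.04 to 1.13), an interval that included 1 with TMM scaling (0.997 to 1.08). Smad4, the shared partner and the highest of the Smads, was at 32.1 and 28.2 RPKM (6564 and 4353 counts), a ratio without over with of 1.01 (0.976 to 1.05). The ubiquitin ligases that mark Smads and receptors for breakdown were alike in this. Smurf1, at 8.13 and 6.85 RPKM (2656 and 1685 counts), had a ratio without over with of 1.06 (0.997 to 1.13). Smurf2, at 12.9 and 11.1 RPKM (4203 and 2729 counts), had one of 1.04 (0.987 to 1.09).

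Smad9, the remaining BMP receptor Smad, stood apart from Smad1 and Smad5. It had 242 counts without and 23 with doxycycline, 0.736 and 0.0926 RPKM, and was 7.08-fold lower (4.61 to 11.4). That level was under the limit of 1 RPKM, so it is not among the called genes, and it made up 1.23% and 0.183% of the summed level of receptor Smads. The summed level was 59.7 RPKM without and 50.6 with doxycycline. The RPKM ratio of Smad6 to Smad1 was 0.706 without and 0.198 with doxycycline.

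Receptors of both branches were mostly within 2-fold. The BMP type I receptor Bmpr1a, at 22.8 and 20.6 RPKM (7641 and 5224 counts) the highest receptor, had a ratio without over with of 0.984 (0.9499 to 1.02) and made up 88.1% and 89.7% of the summed level of BMP type I receptors. Acvr1 (ALK2), another of them, was at 1.61 and 2.04 RPKM (273 and 262 counts), 1.43-fold higher (1.20 to 1.70). Bmpr1b was under the limit with 47 and 11 counts, 2.87-fold lower (1.47 to 6.15).

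Acvrl1 (ALK1; chromosome 15, 100958968 to 100975767), the type I receptor of endothelial cells for BMP9 and BMP10, was the exception among the signalling receptors. It had 295 counts without and 47 with doxycycline, 1.33 and 0.281 RPKM, and was 4.22-fold lower (3.10 to 5.87). Its ligands Gdf2 (BMP9) and Bmp10 had 3 and 5 counts without and 0 with doxycycline. These levels lay within the background of reads described below, so no difference is drawn from them. Endoglin (Eng), the coreceptor that works with ALK1 and is not a member, was at 2.05 and 0.882 RPKM (431 and 140 counts), 2.07-fold lower (1.71 to 2.52). Endothelial markers moved with Acvrl1 and Eng, since 5 of 5 measured of 8 were called lower, against 2.64% of all measured genes. The summed level of these markers was 13.1 RPKM without and 1.88 with doxycycline, and 0 of the 8 were at 0 counts. Their part in the result was not tested.

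The type II receptors, which are shared between ligands, were within 2-fold in 4 of 4. Acvr2b was at 13.8 and 9.81 RPKM (1439 and 771 counts), 1.26-fold lower (1.15 to 1.37). Bmpr2, at 8.87 and 8.69 RPKM (1907 and 1409 counts), had a ratio with over without of 1.10 (1.02 to 1.18), which included 1 when all counts were halved. Acvr2a, at 5.60 and 5.78 RPKM (1949 and 1517 counts), had a ratio with over without of 1.16 (1.08 to 1.24). Tgfbr2 stood at 2.72 and 2.64 RPKM (784 and 574 counts), and its interval included 1 (ratio with over without 1.09, 0.975 to 1.21). None of these 4 was called, and the summed level of type II receptors was 31.0 and 26.9 RPKM.

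Among the type I receptors for activin, Nodal and TGF-beta, Acvr1b (ALK4) was at 12.1 and 8.85 RPKM (2437 and 1341 counts), 1.22-fold lower (1.14 to 1.31). Tgfbr1 (ALK5) was at 8.62 and 6.76 RPKM (2993 and 1770 counts), 1.14-fold lower (1.07 to 1.21). Acvr1c (ALK7) had 6 and 1 counts in gene models that differed between the tables, and no ratio was taken. Tgfbr3, betaglycan, which presents TGF-beta2 and inhibin, was at 4.69 and 4.23 RPKM (1739 and 1182 counts) with a ratio without over with of 0.990 (0.919 to 1.07).

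**Figure D3:**
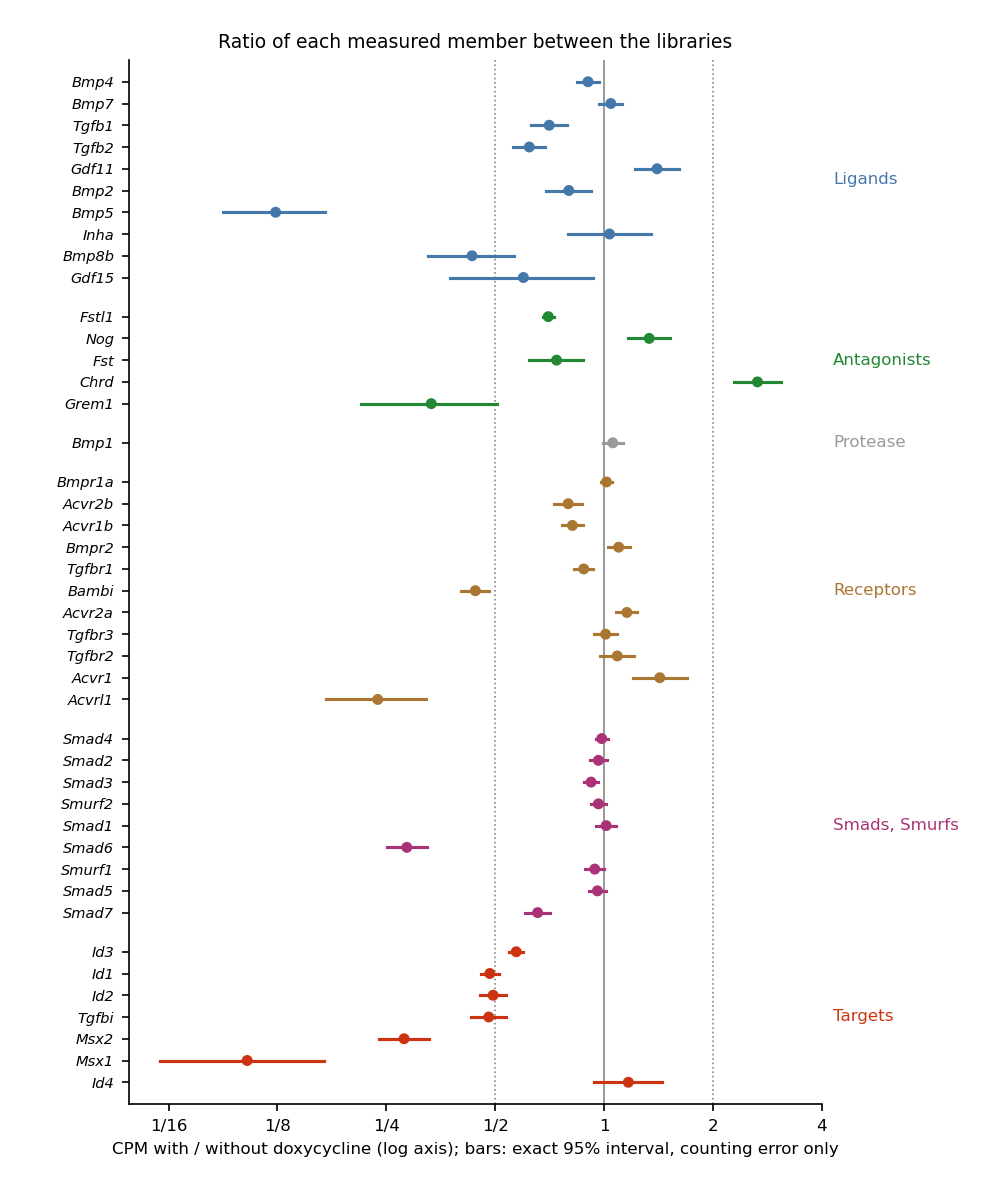
CPM with over without doxycycline for the 43 measured members (log axis, 1 library each). Bars are exact 95% intervals for counting error alone, and dotted lines mark 2-fold. Most receptors and Smads lie near 1, while Acvrl1 (4.22-fold lower), Smad6 (3.51-fold) and Msx1 (9.70-fold) lie well to the left and Chrd (2.66-fold higher) to the right.

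The main BMP ligands were present at similar levels in both libraries. Bmp4, the ligand needed for mesoderm, was at 18.5 and 14.9 RPKM (2254 and 1370 counts), 1.11-fold lower (1.03 to 1.18). With TMM scaling the interval of Bmp4 included 1 (0.990 to 1.13). Bmp7 was at 14.4 and 13.4 RPKM (1729 and 1215 counts), with a ratio without over with of 0.957 (0.889 to 1.03). Bmp2, important for heart and amnion, was at 3.69 and 2.63 RPKM (569 and 306 counts), 1.25-fold lower (1.09 to 1.44).

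Bmp5 (chromosome 9, 75623172 to 75746824), a close relative of Bmp7 used in heart and limb mesoderm, was the only ligand called lower. It had 517 counts without and 43 with doxycycline, 3.34 and 0.368 RPKM, and was 8.09-fold lower (5.92 to 11.3). Its RPKM was 0.233 times that of Bmp7 without and 0.0275 times with doxycycline. The sum of Bmp2, Bmp4, Bmp5 and Bmp7 was 39.8 and 31.2 RPKM, and Bmp4 and Bmp7 together with Bmp2 made up all but 8.38% of it without and 1.18% with doxycycline.

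In the same subfamily Bmp8b, known from germ cell formation, was at 1.34 and 0.515 RPKM (241 and 70 counts). It was 2.32-fold lower (1.77 to 3.07) in CPM and just short of a call on the RPKM scale (log2 ratio -0.86). Its near-identical copy Bmp8a had 49 and 32 counts (fold lower 1.03, 0.647 to 1.66), so the split of reads between the pair is uncertain. Bmp6 had 71 and 36 counts, and its interval included 1 (1.33-fold lower, 0.877 to 2.04).

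The TGF-beta ligands were lower by a moderate factor. Tgfb1 was at 7.52 and 4.73 RPKM (965 and 458 counts), 1.42-fold lower (1.27 to 1.59). Tgfb2, used in heart cushion and endothelium, was at 4.58 and 2.54 RPKM (1325 and 554 counts), 1.61-fold lower (1.46 to 1.78). Tgfb3 was under the limit, with 144 and 57 counts, 1.70-fold lower (1.24 to 2.35). All 3 were thus lower without reaching a call, and their summed level was 12.8 and 7.63 RPKM.

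Among growth and differentiation factors and activins, Gdf11, which patterns the trunk and acts through Smad2 and Smad3, was higher with doxycycline. It was at 3.81 and 4.77 RPKM (423 and 399 counts), 1.40-fold higher (1.22 to 1.61). Gdf15, a stress-induced hormone, was at 1.08 and 0.579 RPKM (72 and 29 counts), 1.67-fold lower (1.07 to 2.67), an interval that included 1 with all counts halved. Inha, the inhibin alpha subunit, was at 1.58 and 1.46 RPKM (142 and 99 counts) with an interval that included 1 (ratio without over with 0.965, 0.741 to 1.26). The activin subunits were scarce, Inhba with 3 and 8 counts, Inhbb with 41 and 32, Inhbc with 2 and 0 and Inhbe with 1 and 8. From these few counts Inhbe was 11.9-fold higher (1.59 to 528), an interval that included 1 with all counts halved.

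Antagonists differed in direction. Chordin (Chrd; chromosome 16, 20733200 to 20742457), secreted by the organizer, had 278 counts without and 497 with doxycycline, 1.39 and 3.28 RPKM, and was 2.66-fold higher (2.29 to 3.09). It lay just inside the threshold (log2 ratio 1.005) and was not called with a pseudocount of 1. Thpo overlaps it and had 31 and 21 counts. Noggin (Nog) was at 3.88 and 4.62 RPKM (457 and 410 counts), 1.33-fold higher (1.16 to 1.53), and was not called. The RPKM of Chrd was 0.0750 times that of Bmp4 without and 0.221 times with doxycycline, and that of Nog 0.210 and 0.310 times.

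The other antagonists with differences beyond counting error were lower. Gremlin (Grem1; chromosome 2, 113588832 to 113598805), used in limb and kidney, had 125 and 28 counts, 1.25 and 0.370 RPKM, and was 3.004-fold lower (1.98 to 4.70). Its log2 ratio of -1.005 lay just inside the threshold. Bmper, an endothelial BMP binding protein, had 221 and 26 counts at 0.951 and 0.148 RPKM, just under the limit of 1 RPKM, and was 5.72-fold lower (3.80 to 8.95). Chrdl1 had 45 and 9 counts, 3.36-fold lower (1.62 to 7.83). The summed level of these BMP antagonists was 7.80 and 8.60 RPKM, with the share of Chrd going from 17.8% to 38.2% and that of Grem1 from 15.97% to 4.30%.

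Of the follistatins, which bind activins, Fst was at 2.84 and 1.87 RPKM (406 and 202 counts), 1.35-fold lower (1.14 to 1.61). Fstl1, a secreted glycoprotein and the highest antagonist, was at 41.8 and 26.2 RPKM (9251 and 4366 counts), 1.43-fold lower (1.38 to 1.48). Fstl3 was under the limit with 103 and 25 counts, 2.77-fold lower (1.78 to 4.48). Neither of the measured follistatins was called. The protease Bmp1 was at 10.4 and 9.80 RPKM (2345 and 1669 counts), and its interval included 1 (ratio with over without 1.06, 0.993 to 1.13).

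**Figure D4:**
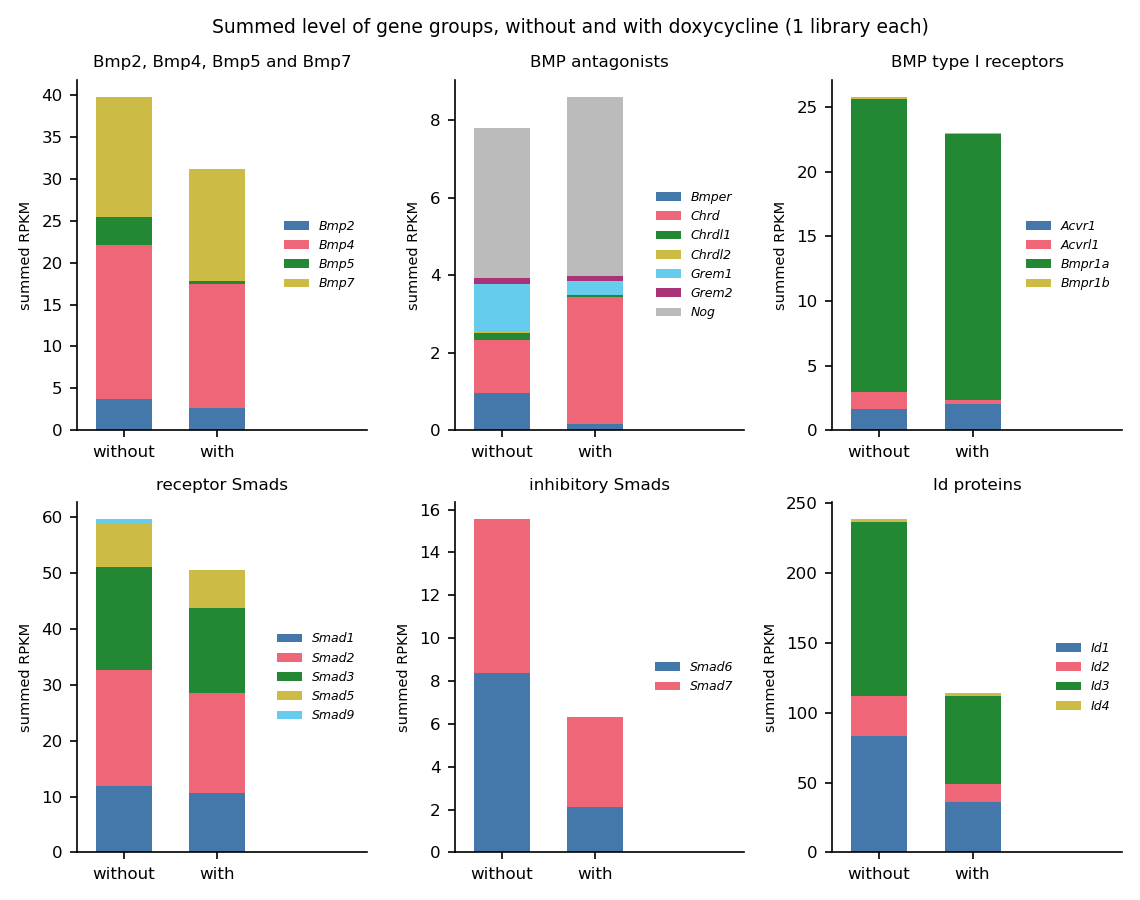
Summed RPKM of 6 gene groups without and with doxycycline (1 library each), with the level of each gene stacked. The Id and inhibitory Smad columns go from 239 to 114 and from 15.6 to 6.33 RPKM, while those of BMP type I receptors and receptor Smads differ little and the BMP antagonist column holds more Chrd.

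The genes nearest to the threshold were Grem1, Chrd, Tgfbi and Id2 inside it, with log2 ratios of -1.005, 1.005, -1.11 and -1.15. Outside it were Id3 (-0.97), Bmp8b (-0.86), Tgfb2 (-0.74) and Smad7 (-0.71).

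Of the 27 members under the limit, 3 (Bmp15, Fstl5 and Msx3) had 0 counts in both libraries and 7 had at most 3 in each, these included. In CPM 17 were higher without and 7 with doxycycline. The 2 with the most counts, Smad9 and Bmper, would have been called lower with no limit on the level. Gdf10, a BMP3 relative, had 112 and 25 counts, 3.01-fold lower (1.94 to 4.86). Bmp3 had 23 and 32 counts, 2.07-fold higher (1.17 to 3.70), an interval that included 1 with halved counts. Gdf9, an oocyte factor, had 10 and 0. At such levels a background of reads differed between the libraries, since of 1396 genes for smell, pheromone and taste receptors, which are typical of sensory tissue, 740 had reads without and 89 with doxycycline. Their 10% trimmed mean was 0.0172 RPKM without and 0 with doxycycline, which is above the level of Gdf2 (0.0164 RPKM) and Chrdl2 (0.0107 RPKM) without doxycycline. The 90th percentile of these sensory genes was 0.0678 RPKM without and 0 with doxycycline, above the level of Bmp10 (0.0620 RPKM) without it. The part of this background in the lowest genes was not tested.

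Neighbouring members on a chromosome could be compared within the same libraries. Smad3 and Smad6 lie on chromosome 9 with a gap of 195083 bases, and the fold of Smad6 was 3.23 times that of Smad3 (2.83 to 3.70). Acvrl1 and Acvr1b lie on chromosome 15 with a gap of 28789 bases, and the fold of Acvrl1 was 3.45 times that of Acvr1b (2.51 to 4.84). Tgfbi and Smad5 lie on chromosome 13 with a gap of 63671 bases, and the fold of Tgfbi was 2.00 times that of Smad5 (1.76 to 2.27). In all 3 pairs with both genes measured one gene was called lower and its neighbour was not, and with all counts halved none of the 3 intervals included 1 (the lowest limit was 1.67).

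Genes of the pathway outside the symbol pattern were read from 5 lists. Regulators of Smad signalling inside the cell had 0 of 24 measured genes called, with a median log2 ratio of -0.09 against -0.18 for all measured genes. Among them Skil (SnoN), a corepressor that TGF-beta signalling induces, was at 13.2 and 16.4 RPKM (5339 and 4989 counts), 1.39-fold higher (1.34 to 1.44). Its log2 ratio of 0.30 was the highest of that list. Latency proteins, coreceptors and activators had 0 of 11 called (median -0.11), and other extracellular inhibitors 0 of 6 (median -0.25). These lists therefore lay near all genes, as the receptors and Smads did.

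Other BMP response genes were called lower in 6 of 9 measured of 14 found, against 2.64% of all measured genes, with a median of -1.57. Centred on the median of all measured genes, 5 were called lower, against 1.74%, and Tbx3 lost its call. This list was chosen with earlier results of these data known, so its share is a description and not independent of them. Hand2, a factor of heart and limb mesoderm, had 409 and 6 counts, 45.9-fold lower (20.9 to 126). Tbx2, which patterns the heart, had 372 and 35 counts, 7.15-fold lower (5.05 to 10.4), and Hey1, which Notch induces as well, 570 and 111, 3.45-fold lower (2.81 to 4.27). Hand1, with 1681 and 75 counts, was 15.1-fold lower (11.96 to 19.3), and Tbx3 2.16-fold (1.93 to 2.43). Tbx20 was at 5.43 and 0.508 RPKM, and no fold is given because its gene model was not the same in both tables. Gata2 was 1.94-fold lower (1.54 to 2.47) and was not called. Neither were Gata3, with a fold of 1.57 (1.25 to 1.98), and Dlx3, with a fold of 1.48 (1.18 to 1.85). Hand1, Hand2, Tbx2 and Tbx20 are also known regulators of heart mesoderm.

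Other TGF-beta response genes were called lower in 3 of 19, against 2.64% of all measured genes, with a median of -0.32. Centred on the median of all measured genes, 2 were called lower, against 1.74%. Cnn1, just inside the threshold (log2 ratio -1.008), then lost its call. Col3a1, a fibrillar collagen that is also among the fibroblast markers, had 1418 and 267 counts, 3.57-fold lower (3.13 to 4.09). Acta2, smooth muscle actin, had 9101 and 2890 counts, 2.12-fold lower (2.03 to 2.21), and Cnn1, calponin of smooth muscle, 640 and 217, 1.98-fold lower (1.70 to 2.33). Ctgf, a matrix protein also induced by YAP, had a fold lower of 1.12 (1.06 to 1.17). Cyr61, its relative, had one of 1.04 (1.01 to 1.07), which fell below 1 with TMM scaling. The 2 response lists therefore differed in their counts and medians, though this difference was not tested and both lists were chosen with earlier results known.

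Several lists of cell type markers moved together with the called members. The share of all measured genes called lower, 2.64%, stands beside each of the marker counts that follow. Markers of heart and lateral mesoderm were called lower in 8 of 8, with a summed level of 47.0 RPKM without and 3.24 with doxycycline and Nkx2-5 at 0 counts with it. Hand1 and Tbx20 are in this list and in that of BMP response genes. Of the blood markers 2 of 4 measured of 8 were called lower (39.8 and 1.30 RPKM summed, with Hba-x, Hbb-bh1 and Hbb-y at 0 with doxycycline), and of visceral endoderm 5 of 6 measured of 8 (27.1 and 5.80 RPKM, with 0 at 0 counts). Fibroblast markers, of the cell type used as feeders before differentiation, were called lower in 4 of 6 measured of 10 (93.3 and 50.3 RPKM). Most of both sums came from Col1a1 and Col1a2, which were not called and are also in the list of TGF-beta response genes. The 4 under the limit had few counts without and with doxycycline: Dcn 1 and 2, Fap 1 and 0, Lum 6 and 2, Thy1 34 and 15. Whether feeder cells were present in either library was not tested.

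Markers of pluripotent cells and parietal endoderm differed less. Those of pluripotent cells were called lower in 1 of 8 (366 and 298 RPKM) and of parietal endoderm in 0 of 5 measured of 6 found (279 and 241 RPKM). Neural ectoderm markers were called lower in 3 of 7, against 2.64% of all measured genes, and the other 4 were within 2-fold. The 3 were Pax6 (6.32-fold, 4.10 to 10.2), Tubb3 (3.80-fold, 2.55 to 5.86) and Irx3 (2.10-fold, 1.89 to 2.33), which lost its call after centring. The summed neural level, 53.9 and 40.6 RPKM, differed less than these. Markers of each listed cell type were detected in both libraries. The part of each cell type in the differences of Msx1, Msx2, Bmp5, Smad6, Id and Grem1 was not tested.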

How the data were processed

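RNA-seq was paired-end, as the labels' protocols state. Bowtie2 and the mm9 build come from the submitters' processing notes, and the sources used here give no annotation, counting program or strand. The authors' deposited tables hold RPKM per gene and an estimated count of reads. They also hold a score (a z-score, not used) and a ratio, deposited by the authors as RMS-normalized RPKM. Estimated counts were rounded, since 1062 genes (without doxycycline) and 825 (with) were not at whole numbers. Genes with 2 counts outnumbered those with 1 (846 against 583 without and 603 against 296 with doxycycline), so both mates of a pair may each have been counted, which would make intervals too narrow. Intervals were repeated with halved counts.

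Library tables were joined by gene name with pandas 2.3.3. Log2 ratios used a pseudocount of 0.5 RPKM, genes of at least 1 RPKM and a threshold of 2-fold. Folds of single genes were CPM ratios with exact (Clopper-Pearson) 95% intervals from scipy 1.17.1, ratios of folds were conditional odds ratios, and a floor of 3 counts was 0.0810 CPM without and 0.120 with doxycycline. TMM factors came from edgeR 4.0.16. The pipeline was tested on simulated data. Members, roles, lists and markers were chosen with earlier results of these data known. All measured members were named with RPKM and counts. From the other pathway lists those called were named, along with some that were not called. The latter were Eng, Skil, Gata2, Gata3, Dlx3, Ctgf, Cyr61, Col1a1, Col1a2 and Dcn. The calls were repeated under 12 alternatives. A planned comparison of proteins was not run here.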

Additional observations from a re-analysis of the deposited data

How the results depend on the processing

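Bambi, Bmp5, Msx1, Msx2 and Smad6 were called lower under each of the 12 alternatives, except that the filter of 5 RPKM left Bmp5 and Msx1 unmeasured. Acvrl1 was not called with a pseudocount of 1 or the filter of 5 RPKM. The calls of Id1, Id2 and Tgfbi were lost with TMM and median-of-ratios factors, on which 2 targets were called. Centring left 3 targets and 0 antagonists lower. The count of members lower was 6 with a filter of 5 RPKM and 16 at 1.5-fold, and was between 7 and 12 under the other alternatives. The share of all genes called lower moved too, from 2.64% as reported to 1.49% with the filter of 5 RPKM and 9.23% at 1.5-fold. Under the other alternatives it was between 1.61% (pseudocount of 1) and 4.29% (RMS-normalized RPKM). Members higher were 0 with a pseudocount of 1, the filter of 5 RPKM and RMS-normalized RPKM, and 1 otherwise. The median log2 ratio was -0.15 after centring, -0.18 with CPM, -0.12 with TMM, -0.12 with median-of-ratios factors and -0.55 with RMS-normalized RPKM, against -0.33 as reported. The median of all genes moved with it, to 0, -0.03, 0.03, 0.03 and -0.40.

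Ligands lower were 2 with a pseudocount of 0.1, CPM, TMM, median-of-ratios factors, RMS-normalized RPKM and the merged table, 4 at 1.5-fold and 0 with the filter of 5 RPKM. The second was Bmp15 in the merged table and Bmp8b in the other 5 of these. The authors' deposited merged table lists Bmp15 with 4.11 RPKM and 1115 counts without doxycycline, where the library table has 0. Antagonists lower were 0 with a pseudocount of 1 and with the filter of 5 RPKM, and 2 with no filter and at 1.5-fold. Receptors lower were 1 with a pseudocount of 1 and with the filter of 5 RPKM, and Smads and Smurfs 2 with no filter and at 1.5-fold. The cause was not tested, apart from fewer genes tested under stricter filters and more under none.

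With halved counts the intervals of Gdf15 and Bmpr2, of 30 measured members whose interval excluded 1, came to include 1. No paired analysis was possible because each group holds 1 library, and no replicate was left out for the same reason.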
